A study of Caenorhabditis elegans with 8 samples.

Results

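The cytosolic ribosomal protein genes of Caenorhabditis elegans were examined in RNA immunoprecipitates of neural ADR-1. They were taken as every gene whose symbol in the Ensembl annotation begins with rpl-, rps- or rla-, which gave 81 of the 46916 genes in the deposited table. Of these, 47 carried an rpl- symbol and 3 an rla- symbol, which makes 50 genes of the large subunit, and 31 carried an rps- symbol of the small subunit. A mean of at least 10 normalised reads over the 8 libraries was reached by 79 of the 81. The remaining genes were rla-0, the stalk base protein gene, listed at 0 in all 8 libraries, and rpl-42, which held 0.32 normalised reads in adr-2(-) IP 2, 0.37 in control IP 2 and 0 in the other libraries. What led to the 0 of rla-0 was not tested, so it is not read here as absence of the transcript.

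ADR-1 is a double-stranded RNA binding protein related to the RNA-editing enzymes, and ADR-2 is the enzyme of the worm that deaminates adenosine in RNA. ADR-1 with its bound RNA was precipitated from first-stage (L1) larvae (the IP), and RNA was also taken from the lysate before precipitation (the input). The adr-2(-) animals (strain HAH26) lacked adr-2 through the ok735 deletion, and the control animals (strain HAH25) kept it. All animals of both strains lacked their own adr-1 through the tm668 deletion and carried the extrachromosomal array blmEx20, in which the neuronal rab-3 promoter drives 3XFLAG-tagged ADR-1, together with GFP. Embryos from bleaching were kept overnight in M9 buffer, so all larvae hatched without food, and they were then crosslinked with UV light. Anti-FLAG beads were used on lysates of whole animals, so that the inputs hold RNA of all tissues while the tagged protein was made from a neuronal promoter. Libraries from animals without tagged ADR-1 were not analysed here, so background binding to the beads was not measured. There were 2 biological replicates of each of the 4 groups: adr-2(-) IP, adr-2(-) input, control IP and control input.

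Ribosomal proteins fold with ribosomal RNA into the large and the small subunit, which together translate every messenger RNA of the cell. Their transcripts are short, abundant and made in all tissues, and their production rises and falls with growth. In most animals each ribosomal protein comes from one gene, and nematodes keep a few pairs of gene copies.

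Reads were kept by the authors only where they aligned to a single place, so near copies bear on what could be counted. The coding starts of 2 pairs are shown because their members differed most in level or in what could be counted. They were read from the RefSeq genome assembly (WBcel235) with the Ensembl annotation, and capitals mark the bases that differ within a pair. The first pair is rpl-11.1 (minus strand, chromosome V, 3585312 to 3586064) and rpl-11.2 (minus strand, chromosome X, 2241738 to 2242618), which encode a large-subunit protein that contacts the 5S ribosomal RNA. The other is rpl-37 (plus strand, chromosome III, 3528642 to 3528917) and W01D2.1 (plus strand, chromosome II, 14815518 to 14816140), a gene that RefSeq names rpl-37.1 and that the symbol rule leaves out.
rpl-11.1: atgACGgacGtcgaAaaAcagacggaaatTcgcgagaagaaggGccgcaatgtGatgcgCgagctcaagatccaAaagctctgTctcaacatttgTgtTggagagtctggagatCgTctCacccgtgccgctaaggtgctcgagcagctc
rpl-11.2: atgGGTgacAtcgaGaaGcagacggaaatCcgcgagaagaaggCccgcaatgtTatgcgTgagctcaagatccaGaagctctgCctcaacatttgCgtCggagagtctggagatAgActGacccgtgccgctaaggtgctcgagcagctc
rpl-37: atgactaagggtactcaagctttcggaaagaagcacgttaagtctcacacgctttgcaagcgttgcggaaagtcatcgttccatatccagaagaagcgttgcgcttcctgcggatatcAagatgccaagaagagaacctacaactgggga
W01D2.1: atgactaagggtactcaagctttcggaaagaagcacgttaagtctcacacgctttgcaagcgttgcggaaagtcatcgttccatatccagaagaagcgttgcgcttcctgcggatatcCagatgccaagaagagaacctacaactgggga
The rpl-11.1 and rpl-11.2 coding sequences were 588 bases each without the stop codon and 84.2% identical, with 17 differences in the 150 bases shown. Those of rpl-37 (273 bases) and W01D2.1 (276 bases) differed at 1 base and by a gap of 3 bases. A window of 100 bases, the read length, had an exact copy elsewhere in the genome, matches across exon junctions of other genes not counted, at 14.1% of the positions in rpl-37, 19.5% in rpl-2 and 2.24% in rpl-7A, and at 0 positions in the other 78 genes of the family.

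Values are normalised read counts, that is, reads divided by a size factor of the library, and whole reads could be recovered from them. The 4 IPs held between 20950842 and 79185015 reads and the 4 inputs between 2595323 and 2969937, a span of 30.5-fold. Ribosomal RNA genes (symbols starting rrn-) took 14.1% of the reads in adr-2(-) IP 2, against 43.7 to 49.9% in the other 3 IPs and 16.8 to 44.7% in the inputs. Over the family, the log2 differences between adr-2(-) IP 1 and control IP 1 had an SD of 0.17, smaller than between the replicate IPs of adr-2(-) (0.28) or of the control (0.35), while those between adr-2(-) IP 2 and control IP 2 had an SD of 0.29. Of 12 neuronal marker genes, all were detected in every library, and their summed share of reads outside ribosomal RNA was 0.265 to 0.346% in adr-2(-) IPs, 0.0617 to 0.0639% in adr-2(-) inputs, 0.193 to 0.291% in control IPs and 0.111 to 0.115% in control inputs.

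To ask how much of each library the family took up, its share of the reads outside ribosomal RNA genes was computed. Ribosomal protein transcripts filled 4.33 and 7.41% of these reads in the adr-2(-) IPs, against 41.2 and 41.4% in the adr-2(-) inputs. In the control they filled 4.36 and 4.65% in the IPs, against 14.9 and 16.3% in the inputs. The share was therefore lower in every IP than in any input, and the inputs of the 2 strains lay far apart. Among the IPs adr-2(-) IP 2, the IP with the lowest share of ribosomal RNA, stood above the other 3. By group means the share was 7.03-fold lower in IPs (5.87% ± 2.17) than in inputs (41.3% ± 0.142) of adr-2(-) animals and 3.46-fold lower in IPs (4.51% ± 0.205) than in inputs (15.6% ± 1.02) of control animals (SD, n = 2 each). Between strains, the input share was 2.64-fold higher in adr-2(-) and the IP share 1.30-fold higher. Of all reads, ribosomal RNA genes included, the family took 2.17 and 6.36% in the adr-2(-) IPs, against 27.6 and 22.9% in the inputs, and 2.33 and 2.62% in the control IPs, against 10.3 and 13.6% in the inputs. On that count the share was 5.91-fold lower in the IPs of adr-2(-) and 4.83-fold lower in those of the control, so the strains lay closer together. The widest 95% Wilson interval of a library's share outside ribosomal RNA, that of adr-2(-) input 2, ran from 41.3 to 41.4%. An exact permutation test of 2 against 2 libraries cannot go below p = 0.333, and none was used.

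**Figure D1:**
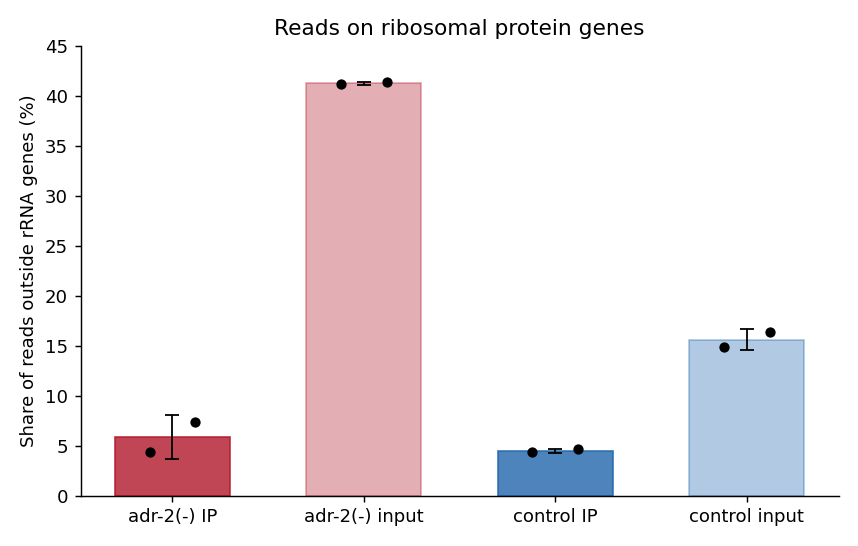
Share of each library's reads outside ribosomal RNA genes (%) that fell on the 81 ribosomal protein genes, for the adr-2(-) IP, adr-2(-) input, control IP and control input. Bars are means, error bars SD (n = 2) and points the libraries. The 4 IPs sit between 4.33 and 7.41%, below all inputs, and the adr-2(-) inputs at 41.2 and 41.4% stand above the control inputs at 14.9 and 16.3%.

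The balance between the subunits also differed between fractions. Small-subunit genes held 40.9 and 41.0% of the family's reads in the adr-2(-) IPs, against 45.1 and 44.8% in the adr-2(-) inputs. In the control they held 40.9 and 40.1% in the IPs, against 42.3 and 42.1% in the inputs. The groups did not overlap in either strain, and the 4 IPs lay within 40.1 to 41.0%.

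Without adr-2, all 79 ribosomal protein transcripts tested were lower in the IP than in the input (limma, adjusted p under 0.05), where 10.5% of the 13276 genes tested were called lower. The log2 IP / input had a median of -3.98 over the family, or 15.8-fold lower, against 0.23 over all genes tested. It ran from -4.83 for rps-12 to -2.83 for rpl-24.2, with adjusted p-values between 0.000744 and 0.00951. In all 79 both IP values lay below both input values, an order seen in 30.7% of all genes tested. The study asked for a 2-fold change and an adjusted p below 0.001, in a DESeq2 likelihood ratio test of the ratio of ratios. At this stricter threshold, applied here to the limma IP / input, 62 of the 79 were called lower, against 0.618% of all genes. These 62 made up 75.6% of the 82 genes called lower at that threshold. Small-subunit transcripts had a median of -4.10 and large-subunit transcripts of -3.76. In bulk RNA, a lower share of a transcript in the cells that make tagged ADR-1 and a lower share on ADR-1 itself cannot be told apart.

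With adr-2 present, ribosomal protein transcripts were lower in the IP by a smaller factor. Their median was -2.03 (4.09-fold), against 0.11 over all genes, and the range ran from -2.70 for rps-12 to -0.60 for rpl-41.1. By limma 71 of 79 were called lower, against 2.84% of all genes tested, and 78 of 79 did not overlap between IP and input, against 24.6% of all genes. The 8 that missed the threshold were rpl-12, rpl-24.2, rpl-3, rpl-37, rpl-41.1, rpl-41.2, rpl-6 and rps-6. This count depended on other rows of the table. It was 0 when 223 rows were left out in which the authors' mean column did not match the 8 library values (0 of them ribosomal protein genes), although 77 of the 79 stayed at an unadjusted p under 0.05 and the family median did not move. Of the 377 genes called lower with all rows, 195 were among these. The count of members was also 0 without either control input library, 6 without either adr-2(-) input library and 38 with a fixed replicate block within strain, and it was 73 by edgeR and 76 by DESeq2. At the stricter threshold 0 of the 79 were called lower, against 1.31% of all genes. That share also depended on the mismatched rows. Without them 0 of the 13061 genes tested were called lower, even at an adjusted p under 0.05.

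**Figure D2:**
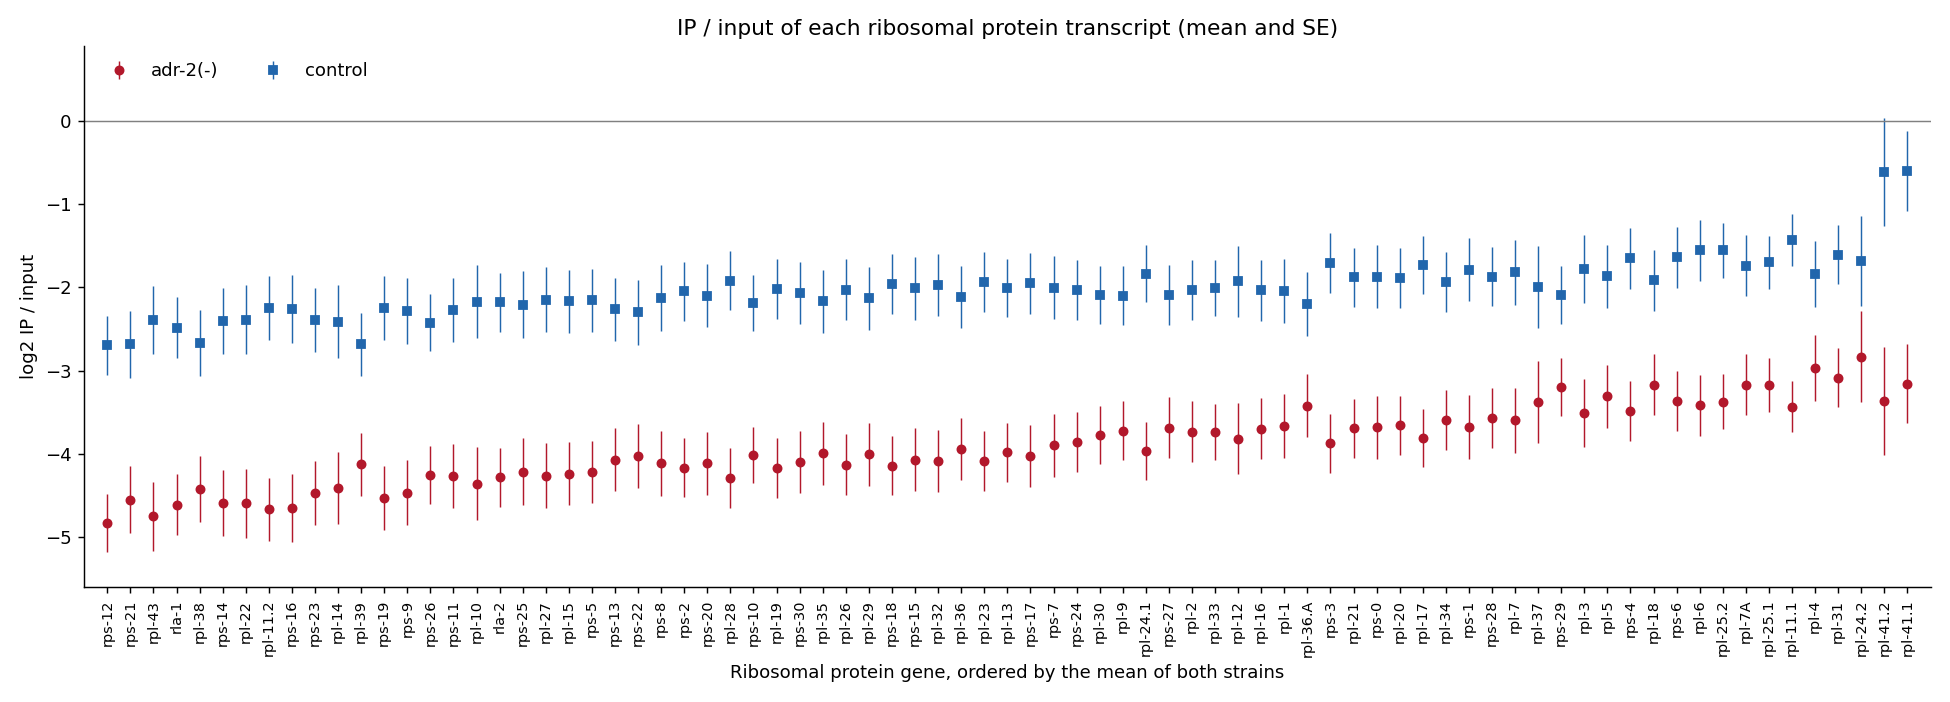
Log2 IP / input of each of the 79 ribosomal protein transcripts tested, in adr-2(-) (circles) and control (squares), with the standard error of the limma fit, ordered by the mean of both strains. All points lie below 0, from -4.83 to -2.83 in adr-2(-) and from -2.70 to -0.60 in the control.

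Single genes show the pattern. Transcripts of rps-12, a small-subunit protein gene with the lowest IP / input in both strains, measured 2524 and 3978 normalised reads in the adr-2(-) IPs, against 89853 and 90319 in the adr-2(-) inputs. In the control they measured 2409 and 1857 in the IPs, against 13166 and 14276 in the inputs. Both adr-2(-) IP values lay above both control IP values, but the 2 strains lay much further apart in the inputs. Its log2 IP / input was -4.83 ± 0.35 in adr-2(-) (adjusted p = 0.000744) and -2.70 ± 0.35 in the control (adjusted p = 0.00325; SE, n = 2 libraries per group).

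Tested genes of the large-subunit stalk, which recruits translation factors, were likewise lower in the IP of both strains. Transcripts of rla-1, an acidic stalk protein gene, measured 2011 and 3272 in the adr-2(-) IPs, against 61249 and 64019 in the inputs, and 2234 and 1496 in the control IPs, against 9779 and 10724 in the inputs. Its partner rla-2 was 18.6-fold lower in the IP than in the input of adr-2(-) and 4.51-fold lower in the control, by group means. Also among the 5 lowest in the mean of both strains were rps-21, rpl-43 and rpl-38, with log2 IP / input of -4.55, -4.75 and -4.42 in adr-2(-) and of -2.68, -2.39 and -2.67 in the control.

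Of the genes with the highest input values, rpl-3 encodes a protein near the site of peptide bond formation. It had 11228 and 18098 normalised reads in the adr-2(-) IPs, against 158484 and 166610 in the inputs, and 11786 and 8344 in the control IPs, against 31647 and 36494 in the inputs. The log2 IP / input of the other 4 was -4.11 for rps-8, -4.36 for rpl-10, -3.60 for rpl-7 and -4.17 for rpl-19 in adr-2(-). In the control these were -2.13, -2.17, -1.82 and -2.02 in the same order, each called lower. Across the 79 members the log2 IP / input correlated with the mean input level at Pearson r = -0.27 in adr-2(-) and -0.45 in the control (Spearman rho = -0.06 and 0.07). Without the 4 members with a mean under 1000 normalised reads, r was -0.06 in adr-2(-) and 0.13 in the control, so these coefficients, taken across genes that are not independent replicates, changed with 4 genes.

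At the other end, rpl-4, whose protein lines the tunnel through which the new chain leaves, measured 5901 and 10617 in the adr-2(-) IPs, against 57637 and 66566 in the inputs, and 6800 and 5080 in the control IPs, against 19233 and 22998 in the inputs. Both strains showed a lower IP, with log2 IP / input of -2.97 ± 0.40 in adr-2(-) and -1.84 ± 0.40 in the control. Transcripts of rpl-31, another large-subunit gene, had -3.08 ± 0.35 and -1.61 ± 0.35. The gene rpl-24.2, whose human relative RSL24D1 acts in assembly of the large subunit, had -2.83 ± 0.54 in adr-2(-) and -1.69 ± 0.54 in the control, where its adjusted p was 0.152.

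The order of the members was alike in the 2 strains, which share no library. Across the 79 the log2 IP / input of adr-2(-) and of the control correlated at r = 0.72 (Spearman rho = 0.80), and at r = 0.77 (rho = 0.79) across the 75 with a mean of at least 1000. Both values of a gene rest on the same sequence, length and copies, so these coefficients describe the libraries only.

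To compare members with each other whatever the scaling of the libraries, each library's median log2 value over the tested members was subtracted from all genes before the fit. Relative to the family, 10 members were lower in the adr-2(-) IP / input (0.136% of all genes tested were called lower in this fit) and 9 were higher (93.9% of all genes). Subtracting the family's level set most other genes above it, so these shares of all genes do not measure how unusual the members' counts are. Since nearly every gene was called here, the adjusted p-values are close to the unadjusted ones. The 10 lower were rps-12 (-0.89), rpl-43 (-0.82), rpl-11.2 (-0.73), rps-16 (-0.71), rla-1 (-0.67), rpl-22 (-0.66), rps-14 (-0.65), rps-19 (-0.60), rps-23 (-0.54) and rps-9 (-0.53). Of these 6 belong to the small subunit, among them rps-23, a protein gene of the decoding site. The tested family holds 31 small-subunit and 48 large-subunit genes, and whether the subunits differ in these departures was not tested. The 9 higher were rpl-4 (0.97), rpl-31 (0.85), rpl-18 (0.76), rpl-25.1 (0.76), rpl-7A (0.76), rpl-5 (0.63), rps-6 (0.57), rpl-6 (0.52) and rpl-3 (0.42), of which 8 belong to the large subunit. The departure of rpl-4 (SE 0.21, adjusted p = 0.00115) was called in 14 of 14 alternatives and that of rps-12 (SE 0.24, adjusted p = 0.00446) in 12 of 14, whereas rpl-22 was called in 7 of 14.

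In the control, 1 member departed downwards, rps-12 (-0.66 ± 0.24, adjusted p = 0.0318, with 1.68% of all genes called lower), and 1 upwards, rpl-41.1 (1.43 ± 0.59, adjusted p = 0.0471, with 71.0% of all genes called higher). The counts depended on single libraries. In adr-2(-) they were 0 lower and 1 higher without adr-2(-) input 1, 0 and 2 without adr-2(-) input 2, 3 and 4 without control input 1, and 2 and 4 without control input 2. In the control both counts were 0 without any one of the 4 inputs. For the ratio of ratios limma called 0 members as departing from the family, while it called 26.3% of all genes higher and 0.0% lower, and for the IPs between strains it called 0 members, with 1.51% of all genes higher and 0.0% lower.

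The inputs were then compared between strains, because they are the denominator of each ratio. All 79 ribosomal protein transcripts were higher in both adr-2(-) inputs than in both control inputs, an order seen in 38.3% of all genes tested. By limma 78 were called higher, against 5.03% of all genes. A fixed replicate block within strain, fitted to IPs and inputs together, compares the strains at the fitted level of the replicates numbered 1. With it 0 were called (smallest adjusted p 0.0968, with 77 at an unadjusted p under 0.05), and with the block as a random effect 78 were. Their median log2 difference was 2.36 (5.15-fold), against 0.01 over all genes, and ran from 1.48 for rps-29 to 2.83 for rpl-11.2. The 1 member not called was rpl-24.2 (1.49 ± 0.54, adjusted p = 0.098). The values of rpl-11.2 were 111490 and 113502 in the adr-2(-) inputs, against 14026 and 17836 in the control inputs. Next came rpl-22, whose product is a large-subunit protein, and rps-16, of the small subunit, both at 2.81 ± 0.41.

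The smallest input differences belonged to rps-29, rpl-24.2 and rpl-4. Transcripts of rps-29, a zinc-binding protein gene of the small subunit, measured 10681 and 12041 in the adr-2(-) inputs, against 3925 and 4211 in the control inputs, and rpl-4 was 2.94-fold higher by group means. Relative to the family, 4 members were lower in this comparison: rps-29 (-0.93), rpl-4 (-0.85), rpl-18 (-0.76) and rpl-7A (-0.62), where 69.9% of all genes were called lower, and 0 members were higher, where 0.0377% of all genes were. The members called relative to the family in adr-2(-) IP / input include 3 of these 4, rpl-4, rpl-18 and rpl-7A, and both comparisons use the adr-2(-) inputs.

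How large the input difference was depended on the scaling. With every library set to the same total, which moved the median of all genes to -1.25, the family median was 1.07 and 0 members were called by limma, with 14 at an unadjusted p under 0.05. With the same total outside ribosomal RNA genes, it was 1.39 beside -0.94 over all genes, and 63 were called. The family stood above the median of all genes by 2.35 in the deposited scaling and by 2.32 in either rescaling. The count was 0 without control input 1, control input 2 or adr-2(-) input 2 and 8 without adr-2(-) input 1.

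**Figure D3:**
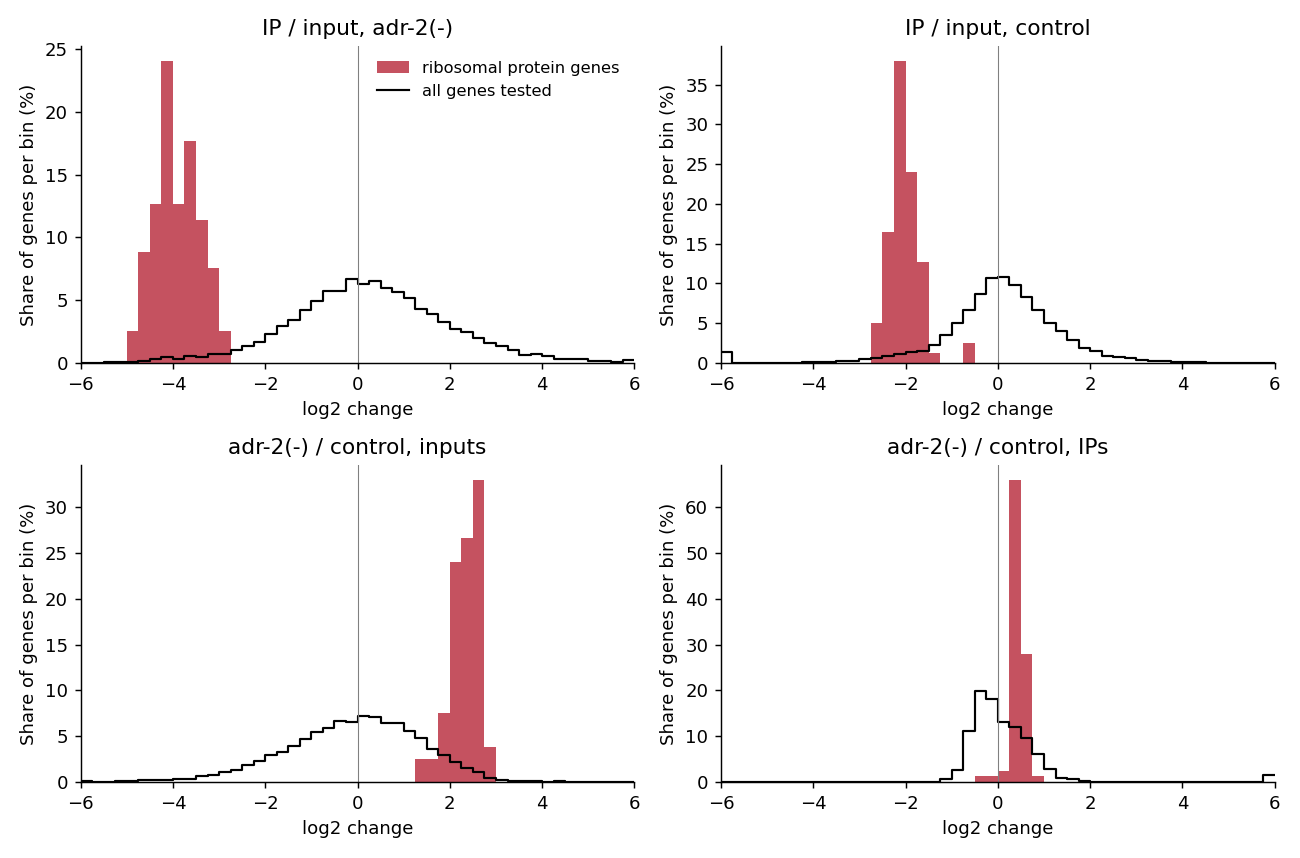
Share of genes (%) per bin of 0.25 in log2 change, for the 79 ribosomal protein genes (filled bars) and all 13276 genes tested (line), in IP / input of adr-2(-) and of the control and in adr-2(-) / control of the inputs and of the IPs. Values beyond 6 or -6 are counted in the outermost bins. The family sits left of the other genes in both IP / input panels, with medians of -3.98 and -2.03, right of them in the inputs at 2.36, and near 0.45 in the IPs.

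Between the IPs of the 2 strains no ribosomal protein transcript was called. The count was 0 by limma, edgeR and DESeq2, and 0 at an unadjusted p under 0.05 by limma, while limma called 1.53% of all genes higher and 0.0% lower. All 203 genes behind that share were among the 223 rows with a mismatched mean, and without these rows limma called 0 genes (85 higher at an unadjusted p under 0.05). The median log2 difference was 0.45 (1.37-fold), and 77 of 79 were above 0. It rested on the second adr-2(-) IP. Between the IPs numbered 1 the family median was -0.05, with 21 members above 0 and 58 below, whereas between the IPs numbered 2 it was 0.94, with 77 above and 2 below. In 15 of 79 members both adr-2(-) IPs lay higher than both control IPs, an order seen in 6.45% of all genes. The highest differences belonged to rpl-37 (0.86 ± 0.49), rpl-36.A (0.66 ± 0.38) and rpl-39 (0.65 ± 0.38), and the lowest to rpl-41.2 (-0.39 ± 0.65), rpl-41.1 (-0.05 ± 0.48) and rpl-11.1 (0.03 ± 0.31). Of these, rpl-37 had the fewest reads of the tested members in control IP 1, with 50, so its place is imprecise.

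**Figure D4:**
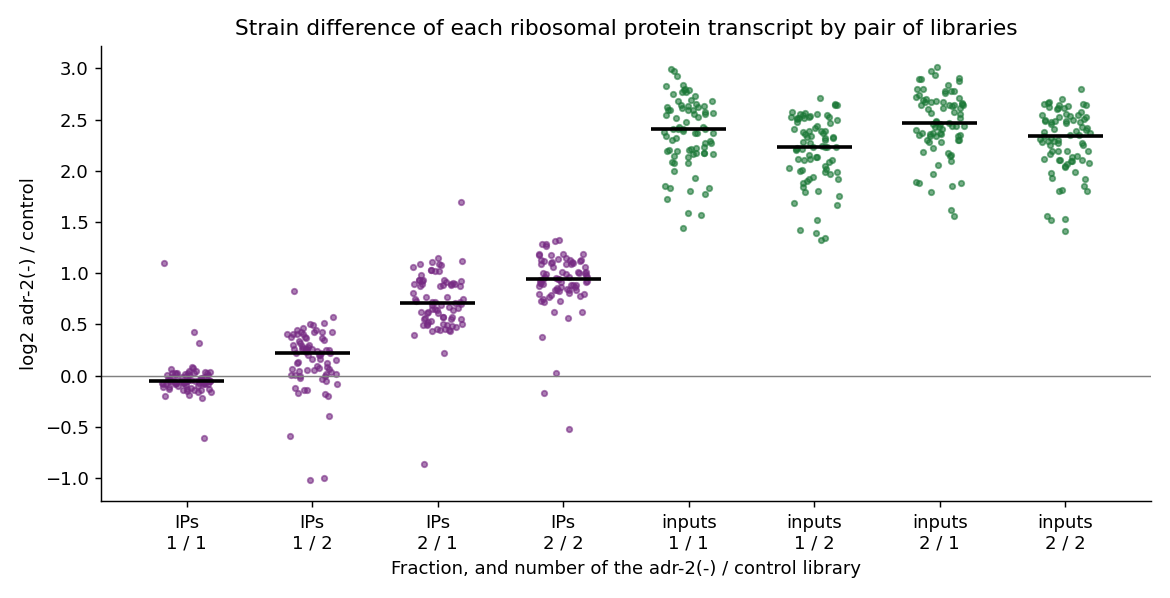
Log2 adr-2(-) / control of each of the 79 transcripts for every pair of libraries, with the number of the adr-2(-) library first and the control library after it, in IPs (left) and inputs (right). Points are transcripts and black lines medians. The IP medians range from -0.05 to 0.94 with the pair, while those of the inputs stay between 2.24 and 2.46.

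The IP / input of adr-2(-) divided by that of the control, called the ratio of ratios here, combines these differences. It was below 0 for all 79 members, with a median of -1.89 against 0.02 over all genes, from -2.75 for rpl-41.2 to -1.10 for rps-29. No member passed the test: limma called 0 (0.158% of all genes were called lower and 1.93% higher), with 74 at an unadjusted p under 0.05, edgeR called 0 and DESeq2 35. Without adr-2(-) IP 2 limma called 60, without control IP 1 it called 11, without adr-2(-) IP 1 it called 7 and without control IP 2 it called 4. After rpl-41.2 the lowest values were those of rpl-41.1 (-2.55 ± 0.68) and rpl-11.2 (-2.42 ± 0.54), and after rps-29 the highest were those of rpl-4 (-1.13 ± 0.57) and rpl-24.2 (-1.14 ± 0.77). With every library set to the same total, which moved the median of all genes to 1.41, the family median was -0.46, and the highest member, rps-29 at 0.33, still lay below the median of all genes.

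Pairs of genes with like symbols were set side by side, with levels per kilobase of mRNA. The family's input levels per kilobase were led by rps-14 and rps-8, and the 5 lowest were rpl-24.2, rpl-41.1, rpl-11.1, rpl-37 and rpl-41.2. The rpl-11.1 copy shown above had 3496 normalised reads per kilobase in adr-2(-) inputs, against 857 in control inputs, and rpl-11.2 had 153893 in adr-2(-) inputs, against 21794 in control inputs. Both were lower in the IP of adr-2(-), by -3.43 ± 0.31 for rpl-11.1 and -4.67 ± 0.38 for rpl-11.2, and in the control by -1.43 ± 0.31 and -2.25 ± 0.38. The difference between the copies was not tested.

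The genes rpl-24.1 and rpl-24.2 also differed in level, but they are not copies that encode one protein. RefSeq names them rpl-24 and rsl-24D1. Per kilobase, rpl-24.1 had 187461 normalised reads in adr-2(-) inputs, against 32262 in control inputs, and rpl-24.2 had 10499 in adr-2(-) inputs, against 3741 in control inputs. The ribosomal protein gene rpl-24.1 had a log2 IP / input of -3.96 ± 0.35 in adr-2(-) and -1.84 ± 0.35 in the control, beside the values of rpl-24.2 above. The copies rpl-25.1 and rpl-25.2, which encode a protein at the exit of the tunnel, had near-equal input levels per kilobase, 45654 and 39787 in adr-2(-) and 12964 and 8777 in the control. Their log2 IP / input was -3.17 ± 0.32 and -3.37 ± 0.33 in adr-2(-), and -1.70 ± 0.32 and -1.56 ± 0.33 in the control. Although their symbols look alike, rpl-7 and rpl-7A, and rpl-36 and rpl-36.A, encode different proteins. In adr-2(-) the log2 IP / input was -3.60 for rpl-7, -3.17 for rpl-7A, -3.94 for rpl-36 and -3.42 for rpl-36.A.

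The rpl-41 copies encode one of the shortest ribosomal proteins. Transcripts of rpl-41.1 measured 223 and 317 in the adr-2(-) IPs, against 2318 and 2440 in the inputs, and 166 and 455 in the control IPs, against 442 and 395 in the inputs. Its control groups overlapped, the only such case among the 79, and its log2 IP / input there was -0.60 ± 0.48 (adjusted p = 0.525). Without control IP 1 the value turned to 0.12. Transcripts of rpl-41.2 rested on 13 and 13 reads in the adr-2(-) inputs and 7 and 6 reads in the control inputs, so its control value of -0.62 ± 0.65 is imprecise.

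The single-exon gene rpl-37 held 27.0 and 23.4 normalised reads in the adr-2(-) IPs, against 295 and 249 in the inputs, and 12.1 and 14.8 in the control IPs, against 63.2 and 50.1 in the inputs. Its near copy W01D2.1 held 2082 and 3201 in the adr-2(-) IPs, against 44504 and 46028 in the inputs, and 2104 and 2046 in the control IPs, against 7406 and 8079 in the inputs. Reads that match both sequences were left out of both values, and the net effect of the near copy on each value was not tested. Their log2 IP / input was -3.38 ± 0.49 for rpl-37 and -4.13 ± 0.33 for W01D2.1 in adr-2(-).

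Ribosomal protein genes under other names moved with the family. The genes ubl-1 and ubq-2, which encode a small-subunit and a large-subunit protein joined to a ubiquitin-like or ubiquitin part, had log2 IP / input of -3.93 ± 0.36 and -4.16 ± 0.36 in adr-2(-) and of -2.05 ± 0.36 and -2.23 ± 0.36 in the control, all called lower. A further 2 genes that RefSeq names as ribosomal protein genes, C37A2.7 (rplp-2.1) and Y37E3.8 (rpl-27A), were found like W01D2.1 after the values had been seen. They had -4.33 ± 0.37 and -4.31 ± 0.38 in adr-2(-).

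Because ribosomal protein mRNAs are short, length was compared as well. The tested members had a median annotated mRNA length of 507 bases, against 1405 bases in the 12850 other protein-coding genes tested. Across all protein-coding genes tested, log2 IP / input correlated with log2 mRNA length at r = 0.48 in adr-2(-) (Spearman rho = 0.52). In the control r was 0.08 (rho = 0.18). Across the 79 members r was 0.18 in both strains, with rho at 0.18 in adr-2(-) and 0.35 in the control. Across the 75 with a mean of at least 1000, r was 0.28 in adr-2(-) and 0.48 in the control (rho = 0.28 and 0.45). In each class of mRNA length up to 1500 bases the family median lay below that of the other genes, with lengths not matched within a class. Up to 500 bases the median was -4.05 for 36 members and -1.50 for 775 other genes in adr-2(-), and -2.12 and -0.26 in the control. Between 800 and 1500 bases it was -3.51 for 11 members and -0.11 for 4591 other genes in adr-2(-), and -1.79 and 0.04 in the control. These values are a description with no test, and the part of length in the family's IP / input was not tested further.

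**Figure D5:**
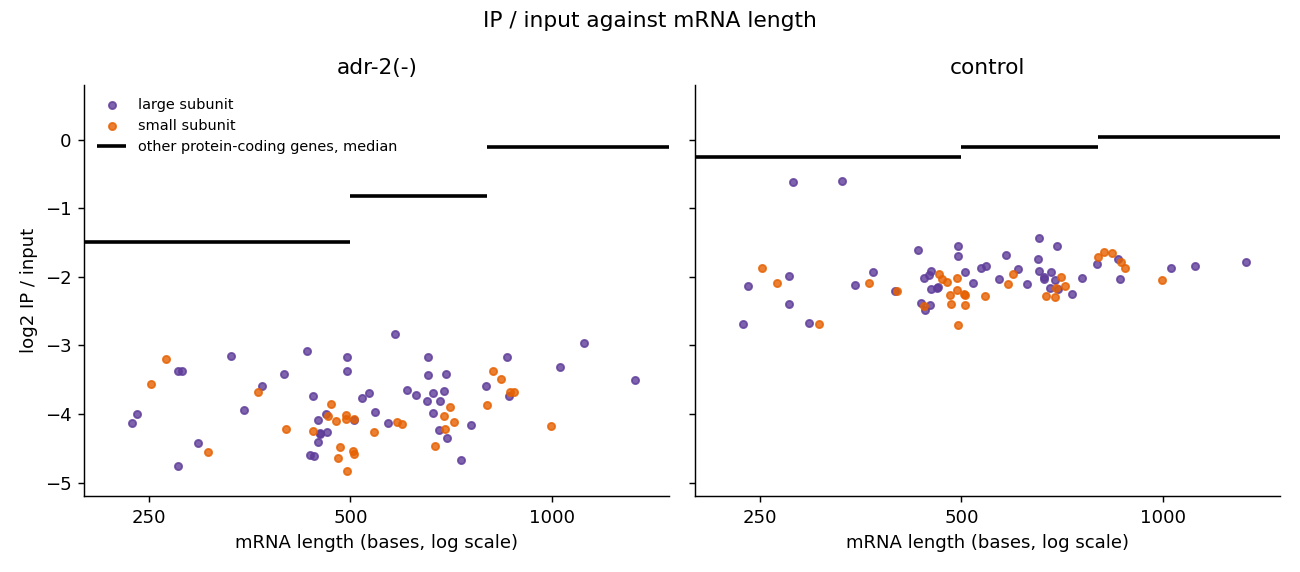
Log2 IP / input of the 79 transcripts against annotated mRNA length (bases, log scale) in adr-2(-) (left) and control (right), with points coloured by subunit and black lines at the median of other protein-coding genes up to 500, 800 and 1500 bases. All 79 members lie below the line of their length class in both strains, and rpl-41.1 and rpl-41.2, at -0.60 and -0.62 in the control, come nearest to it.

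Other genes of translation were read from lists, beside all genes tested, of which 10.5% were called lower and 14.3% higher in adr-2(-) IP / input and 2.84% lower in that of the control. All 6 elongation factor genes were lower in the adr-2(-) IP than in the input, with a median log2 of -2.71, as were all 4 genes of ribosome-associated factors, with a median of -3.13. Among these, rack-1, a scaffold protein gene of the small subunit, had -4.12 ± 0.39 in adr-2(-) and -2.10 ± 0.39 in the control, within the range of the family. The elongation factor eef-2, which moves the ribosome along the mRNA, had -2.18 ± 0.40 in adr-2(-) and -1.60 ± 0.40 in the control, where its adjusted p was 0.0769. In the control 3 of the 6 elongation factors were called lower, and 2 of the 4 ribosome-associated factors. Of the former, eef-1B.1 was listed at 0 in both control IPs, in a row with a mismatched mean. Without the rows with a mismatched mean, limma called 0 genes lower and 0 higher in control IP / input.

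Of 25 initiation factor genes, 8 were called lower and 1 higher in the adr-2(-) IP, with a median of -0.60, and 0 in the control (limma, median -0.34). Ribosome biogenesis genes gave 3 of 11 lower in adr-2(-), with a median of -0.50. For the ribosome of mitochondria, 34 of 70 genes were called lower in adr-2(-), with a median of -1.21, and 0 in the control, with a median of 0.01. Of 32 tested proteasome genes 3 were lower and 2 higher in adr-2(-), shares below those of all genes, with a median of -0.76, and 1 was lower in the control, with a median of -0.94. That control call was lost without the rows with a mismatched mean.

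Tissue markers moved between the fractions too. In adr-2(-) IP / input, 8 of 12 neuronal and 4 of 6 body wall muscle markers were called higher, against 14.3% of all genes, and 4 of 6 intestinal markers were called lower, against 10.5%. In the control, 1 of 12 neuronal and 0 of 6 muscle markers were called higher by limma, against 0.535% of all genes, and 2 of 6 intestinal markers lower, against 2.84%. Each of these control calls was lost without the rows with a mismatched mean. The summed muscle markers ranged from 64028 to 69431 normalised reads in adr-2(-) IPs, 10751 to 15435 in adr-2(-) inputs, 19710 to 82624 in control IPs and 28272 to 28995 in control inputs. The summed intestinal markers ranged from 14454 to 26859 in adr-2(-) IPs, 173853 to 193899 in adr-2(-) inputs, 8225 to 15953 in control IPs and 66512 to 76585 in control inputs. Of 6 germ line markers 4 were called lower in adr-2(-) inputs than in control inputs, against 9.37% of all genes, with a median log2 difference of -2.54, and their sums ranged from 510 to 994 in adr-2(-) IPs, 583 to 837 in adr-2(-) inputs, 873 to 1519 in control IPs and 2039 to 2071 in control inputs. The 4 tested of 6 epidermis markers had a median log2 IP / input of -0.87 in adr-2(-) and 1.55 in the control, with 0 called by limma in either, and 1 was called higher in the adr-2(-) inputs. The epidermis sums ranged from 8788 to 38016 in adr-2(-) IPs, 32651 to 35198 in adr-2(-) inputs, 21149 to 49975 in control IPs and 10432 to 11549 in control inputs. No marker of these 5 tissues was at 0 in any library, and their part in the family's values was not tested.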

How the data were processed

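The authors, by their methods section, selected poly(A) RNA, sequenced stranded single-end reads of 100 bases, aligned them to ce11 with STAR (of which the methods and the submitters' processing notes name different versions), kept uniquely aligned reads and counted them per WormBase gene on the sense strand with featureCounts. The deposited signal per gene is a normalised read count, that is, reads divided by a DESeq2 size factor of the library. All 8 per-sample columns were used. The authors' columns of mean, log2 ratio of ratios, standard error, test score, p-value and adjusted p-value in the deposited table were not used as results, and their mean served only to find 223 rows that it does not match within 0.02 or 0.1%. Of the 46917 rows, 1 duplicate identifier was removed, 24 identifiers were not in the annotation (Ensembl release 115), and 19460 rows were 0 throughout.

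Members and lists were chosen with earlier results of these data known. Genes whose mean reached 10 entered limma 3.58.1 (R 4.3.3; lmFit, eBayes with trend), fitted to log2(value + 1) of the 8 libraries with a mean for each of the 4 groups and without a block. Benjamini-Hochberg adjustment ran over all 13276 genes. The pseudocount understates changes of low genes. With 2 libraries per group, limma p-values set a difference against the spread between replicate libraries. That spread was pooled over the 4 groups and moderated towards a trend over all genes tested, and the standard errors come from it. In matched rows 100% of values above 0 came out as whole reads at the deposited rounding, so edgeR 4.0.16 (quasi-likelihood) and DESeq2 1.42.0 were run on the recovered reads as alternatives. Other alternatives were replicate blocks, pseudocounts of 0.1 and 10, other filters (none, or a mean of at least 50) and scalings, the stricter threshold, removal of the mismatched rows and of each library in turn. The fit was tested on simulated data. Wilson intervals cover only counting error, as reads copied by PCR do not count separate molecules.

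Named with values were the members with the highest input, the lowest and highest IP / input, ratio of ratios and strain differences, genes with like symbols, stalk genes, members under the filter, and ubl-1 and ubq-2. Members called relative to the family, W01D2.1, C37A2.7 and Y37E3.8 were named after their values were seen. Sequences and lengths came from the RefSeq genome (WBcel235) and the Ensembl annotation, with the longest coding transcript per gene.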

Additional observations from a re-analysis of the deposited data

How the results depend on the processing

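The family median relative to all genes kept its direction in every alternative run: without 1 library it ranged from -4.60 to -3.77 for IP / input in adr-2(-), -2.26 to -1.95 in the control, -2.30 to -1.63 for the ratio of ratios, 2.25 to 2.44 for the inputs and 0.12 to 0.88 for the IPs, and with a replicate block within strain it was 2.14 for the inputs. Counts of calls moved more. In the control, 71 members lower became 38 with a replicate block within strain, 4 with no filter, 23 with the same total, 0 without the mismatched rows and 0 at the stricter threshold, where 0 of 79 were called. In the inputs, 78 higher became 0 with a fixed replicate block within strain (78 with a random one, added after the data were seen, which changed no count of members), 50 with no filter, 0 with the same total and 0 at the stricter threshold. For the ratio of ratios, 0 lower became 2 with TMM and 35 with DESeq2. Without 1 library the counts ranged from 77 to 79 lower in adr-2(-), 0 to 75 lower in the control, 0 to 60 lower for the ratio of ratios and 0 to 79 higher in the inputs. Relative to the family, they ranged from 0 to 14 lower and 1 to 15 higher in adr-2(-), 0 to 5 lower and 0 to 4 higher in the control, 0 to 9 lower and 0 to 1 higher in the inputs, and 0 to 1 higher for the ratio of ratios. With a replicate block within strain, an alternative added after the data were seen for this fit, they were 2 lower and 5 higher in adr-2(-), 0 lower in the control and 1 lower in the inputs. The control count of 1 higher was 0 with a pseudocount of 0.1 and 2 with 10. Without 1 library, rpl-41.1 ranged from -1.33 (without control IP 2) to 0.12 (without control IP 1) in the control IP / input. With the same total, which moved the median of all genes to 1.41, the ratio of ratios turned to 0.28 for rpl-24.2, 0.30 for rpl-4, 0.33 for rps-29, 0.033 for rpl-37 and 0.21 for rpl-36.A, all below that median. The family's share of all reads, ribosomal RNA included, was 4.27% in adr-2(-) IPs, 25.2% in adr-2(-) inputs, 2.47% in control IPs and 11.9% in control inputs. Outside the 10 most abundant other genes it was 43.7% in adr-2(-) inputs and 16.7% in control inputs, and with ubl-1 and ubq-2 it was 42.2% in adr-2(-) inputs. The cause of these shifts was not tested. With a replicate block by number, 69 members were lower in the control and 77 higher in the inputs. Same-numbered libraries deviated together only between the IPs (correlation 0.45 across genes, against -0.01 to 0.04 for the 5 remaining pairs of groups). The numbers were therefore not taken to pair IPs with inputs, and the main fit used no block. With a block by number 0 members were called between the IPs of the strains as well. Whether same-numbered IPs share a batch was not tested. Depth limits the low members: rpl-41.2 rests on 6 to 13 reads in the inputs, and rpl-37 on 50 reads in control IP 1.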
